A study of Mus musculus with 9 samples.

Results

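The 37 genes described here are 21 genes of glucose uptake, glycolysis and lactate handling and 16 hypoxia-responsive genes, taken by symbol from the platform annotation of the arrays, with the brightest probe set standing for each gene. Of the 37, 32 were represented by a probe set that carries no other symbol, and all 32 passed the filter on low values and were tested among 12579 genes, out of 22180 genes with such a probe set. They are 18 of the 21 glycolytic genes and 14 of the 16 hypoxia-responsive genes. No probe set is listed for Gpi1 and Eno1 under these symbols, and Aldoa, Bnip3l and Ankrd37 have only probe sets that also carry other symbols, so these 5 genes were not analysed here.

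The arrays measured RNA of mouse natural killer (NK) cells, cytotoxic lymphocytes of the innate immune system, from spleens of female C57BL/6N mice. The groups are wild type (WT), a knockout of the Janus kinase Tyk2 (Tyk2-/-) and a mutant whose Tyk2 has no kinase activity (Tyk2K923E). Each of 3 independent experiments held 1 array per genotype, which makes 9 arrays. Every array came from cells enriched with DX5 magnetic beads, pooled from 3 to 4 mice, and grown for 7 days with 5000 U/ml of recombinant human interleukin-2 (IL-2), so all groups share the IL-2 culture. All cultures were split on day 4 and on day 6. The labels do not say in what the experiments differed, and they give no oxygen level, glucose level or cell density.

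Glycolysis splits glucose into pyruvate. Glucose enters through transporters of the Slc2a family, hexokinase and phosphofructokinase commit it to breakdown, and lactate dehydrogenase and the Slc16a transporters convert and export the end product. In low oxygen the transcription factor subunit Hif1a escapes the prolyl hydroxylases of the Egln family and, with its partner Arnt, switches on genes that carry a short sequence, the hypoxia response element, near their start sites, among them glucose transporters, glycolytic enzymes and the hydroxylases themselves. Activated lymphocytes, including NK cells grown in cytokines, are known to raise glycolysis also in normal oxygen, through Myc, mTOR and Hif1a.

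All values are the authors' normalised log2 signals. A difference of 1 is a doubling of signal, and levels of different genes cannot be compared. The 9 arrays had medians of 5.42 to 5.48. The first principal component of the 9 arrays held 61% of the variance. All 14 NK cell markers passed the filter, with a mean level of 11.2 to 11.4 on every array, as did 11 of 17 T cell markers (8.55 to 9.21), 5 of 11 monocyte and macrophage markers, 3 of 11 neutrophil markers and 1 of 10 B cell markers. The probe set of Tyk2 read 8.56 to 8.68 in WT, 8.63 to 9.55 on the arrays labelled Tyk2-/- and 8.43 to 8.63 in Tyk2K923E. The knockout arrays thus did not read lower than WT. The sources used here do not say which exons are missing or where the probes lie, so this reading is no check of the labels, and every genotype comparison takes each array's label as given.

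The promoters of 4 genes are shown because these genes had the largest differences between experiment 1 and the mean of experiments 2 and 3 among members with a RefSeq promoter entry. Each runs from 250 bases before to 50 bases after the transcription start (RefSeq, GRCm38.p6), 5′ to 3′ on the strand of the gene. Capitals mark the core of the hypoxia response element, searched as ACGTG and GCGTG and as their reverse complements CACGT and CACGC.
Pygl, chr12:70227634-70227933, minus strand: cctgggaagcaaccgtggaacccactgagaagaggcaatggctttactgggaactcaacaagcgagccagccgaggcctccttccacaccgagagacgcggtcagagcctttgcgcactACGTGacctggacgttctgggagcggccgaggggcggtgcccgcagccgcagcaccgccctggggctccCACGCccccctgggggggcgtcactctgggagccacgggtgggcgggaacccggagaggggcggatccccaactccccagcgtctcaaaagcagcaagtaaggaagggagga
Mxi1, chr19:53310256-53310555, plus strand: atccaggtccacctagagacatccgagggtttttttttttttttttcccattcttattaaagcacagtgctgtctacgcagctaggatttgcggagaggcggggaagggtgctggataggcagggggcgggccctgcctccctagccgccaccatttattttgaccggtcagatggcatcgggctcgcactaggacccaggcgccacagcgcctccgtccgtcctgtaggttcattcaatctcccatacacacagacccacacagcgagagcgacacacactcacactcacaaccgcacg
P4ha2, chr11:54100674-54100973, plus strand: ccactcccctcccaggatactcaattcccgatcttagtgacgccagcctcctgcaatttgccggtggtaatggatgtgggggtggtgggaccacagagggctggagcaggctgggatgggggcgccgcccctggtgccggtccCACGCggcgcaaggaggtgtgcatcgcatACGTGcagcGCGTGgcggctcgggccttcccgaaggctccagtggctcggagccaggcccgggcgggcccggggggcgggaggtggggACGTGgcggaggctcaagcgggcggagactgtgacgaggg
Egln3, chr12:54203825-54204124, minus strand: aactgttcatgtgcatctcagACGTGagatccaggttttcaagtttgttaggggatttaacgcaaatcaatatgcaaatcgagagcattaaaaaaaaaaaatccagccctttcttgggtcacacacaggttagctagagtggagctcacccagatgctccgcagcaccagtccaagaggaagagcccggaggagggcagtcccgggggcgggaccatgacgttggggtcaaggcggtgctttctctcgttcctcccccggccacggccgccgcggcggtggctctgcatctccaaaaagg

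The window of P4ha2 held 4 cores, that of Pygl 2, that of Egln3 1 and that of Mxi1 none. The RefSeq table has 3 entries for Mxi1, of which the first is shown. In P4ha2 the cores began at positions -107, -78, -69 and 11 from the transcription start, and in Pygl at -131 and -62. The single core of Egln3 began at -229. Of the 32 members tested, 30 had an entry in the table. A core stood in 22 of these 30 windows (73.3%), against 43.8% of all 27025 promoters and 61.5% of the 9880 promoters of genes tested. The share was 13 of 17 (76.5%) for glycolytic and 9 of 13 (69.2%) for hypoxia-responsive genes. The form ACGTG alone stood in 17 of 30 windows (56.7%), against 19.7% of all promoters and 25.6% of those of genes tested. The other form, GCGTG, stood in 15 of 30 (50%), against 32.5% of all promoters and 49.9% of those of genes tested. The longer form ACGTGC stood in 11 of 30 (36.7%), against 5.92% and 8.10%. The palindrome CACGTG, which contains ACGTG and is also the E-box read by Myc and related factors, stood in 5 of 30 (16.7%), against 7.24% and 9.93%. The windows of members had a median GC content of 65%, against 52.7% over all promoters and 60.7% over those of genes tested. The part of base composition in these shares was not tested. The most cores, 7, were in the window of Ldha, whereas Gys1, Gbe1, Vegfa, Mxi1, Eno2, Hk1, Pkm and Tpi1 had none, so members with and without a core occurred in both classes. Only the first entry of each gene was searched. Vegfa, Hk1 and Pkm have 2 entries each and Mxi1 has 3, so their other start sites were not covered. A match is a description of the letters in this window and not a site of binding.

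**Figure D1:**
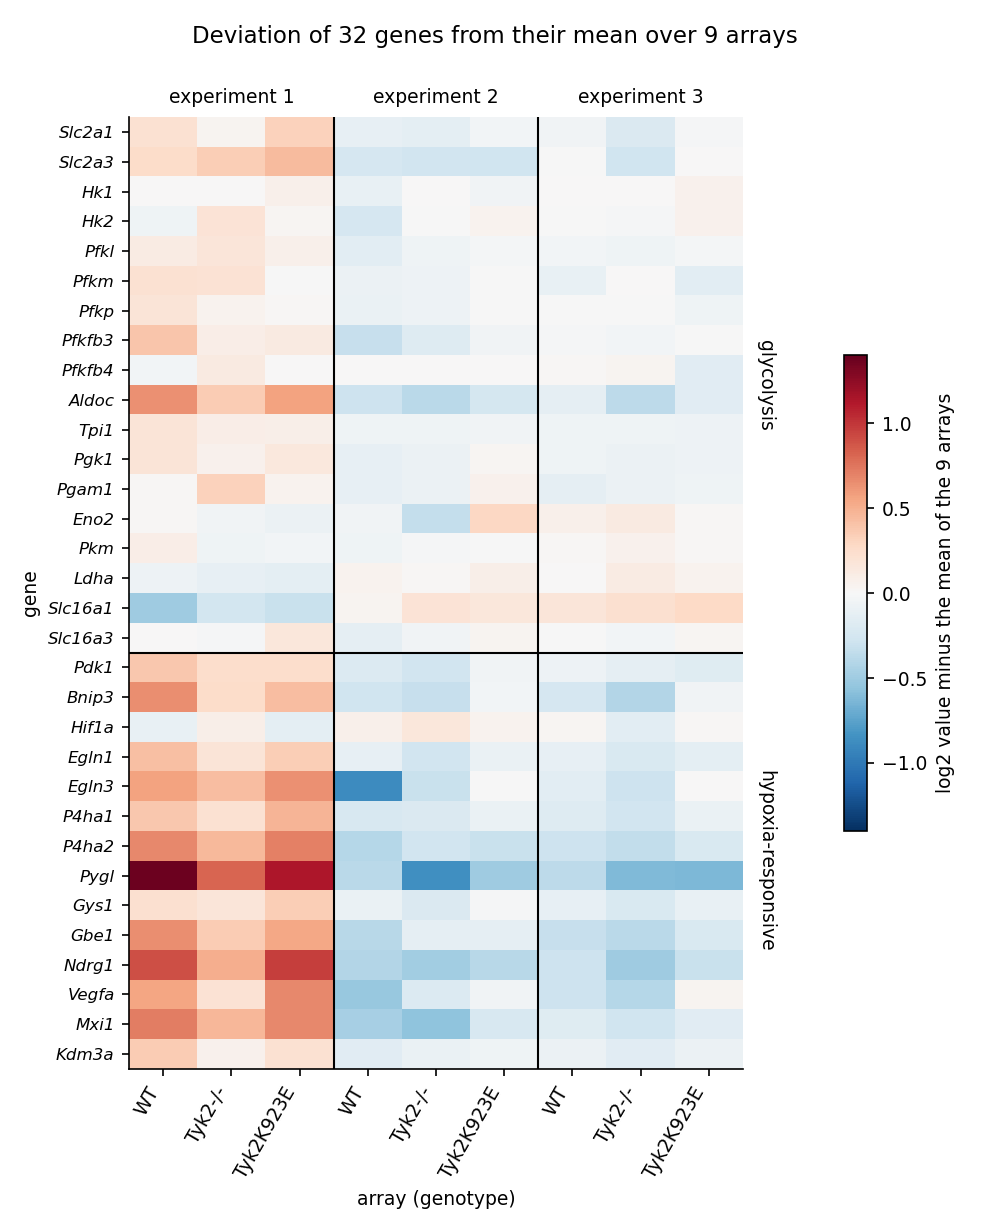
Log2 signal of the 32 members on the 9 arrays, each gene centred on its own mean over the arrays, with glycolytic genes above and hypoxia-responsive genes below. Columns are arrays, ordered by experiment and labelled with genotype. All 3 arrays of experiment 1 are above the other 6 for 13 of 14 hypoxia-responsive and 8 of 18 glycolytic genes, and for 14.5% of all genes tested. All 3 are below the other 6 for 2 glycolytic genes, and for 18.7% of all genes.

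The widest differences among the members lay between experiments. With the genotypes paired, 19 of the 32 members were lower in experiment 2 than in experiment 1 and 1 was higher (limma adjusted p under 0.05), where 11.6% of all genes tested were lower and 16.9% higher. In experiment 3 against experiment 1, 18 were lower and 1 was higher, where 14.7% and 17.2% of all genes were. The 2 comparisons share the arrays of experiment 1. Between experiments 3 and 2, 0 members and 0% of all genes passed in limma, and 1 member, Mxi1, had an unadjusted p under 0.05 (0.21 higher in experiment 3, adjusted p = 0.843), as did 5.68% of all genes. Among all genes, 59.2% of the calls of experiment 2 against 1 were higher in experiment 2, and 46.3% were after quantile normalisation, while the members lower in experiment 2 numbered 20 there.

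The 2 classes differed in how many members moved. Of the hypoxia-responsive genes, 13 of 14 were lower in both experiments 2 and 3 than in experiment 1, all except Hif1a. The median difference of the 14 was -0.69 in each comparison. Among all genes, 11.6% were lower in experiment 2 and 14.7% in experiment 3, and the share lower in both was not computed. Of the glycolytic genes, 6 of 18 were lower in experiment 2 and 5 in experiment 3, and 1 was higher in each. The shares of all genes were 11.6% and 14.7% lower and 16.9% and 17.2% higher. Of the 18, 4 were lower in both (Slc2a1, Slc2a3, Aldoc and Tpi1) and 1 was higher in both (Slc16a1). A further 3 were lower in only 1 comparison (Pfkl, Pfkfb3 and Pgk1) and 10 passed in neither. The median difference of the glycolytic genes was -0.15 and -0.14, and the median of all genes tested was 0.00 in both. The median SD over the 9 arrays was 0.39 for hypoxia-responsive genes, 0.11 for glycolytic genes and 0.14 for all genes. These are descriptions, since the members were listed with results of these data known.

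**Figure D2:**
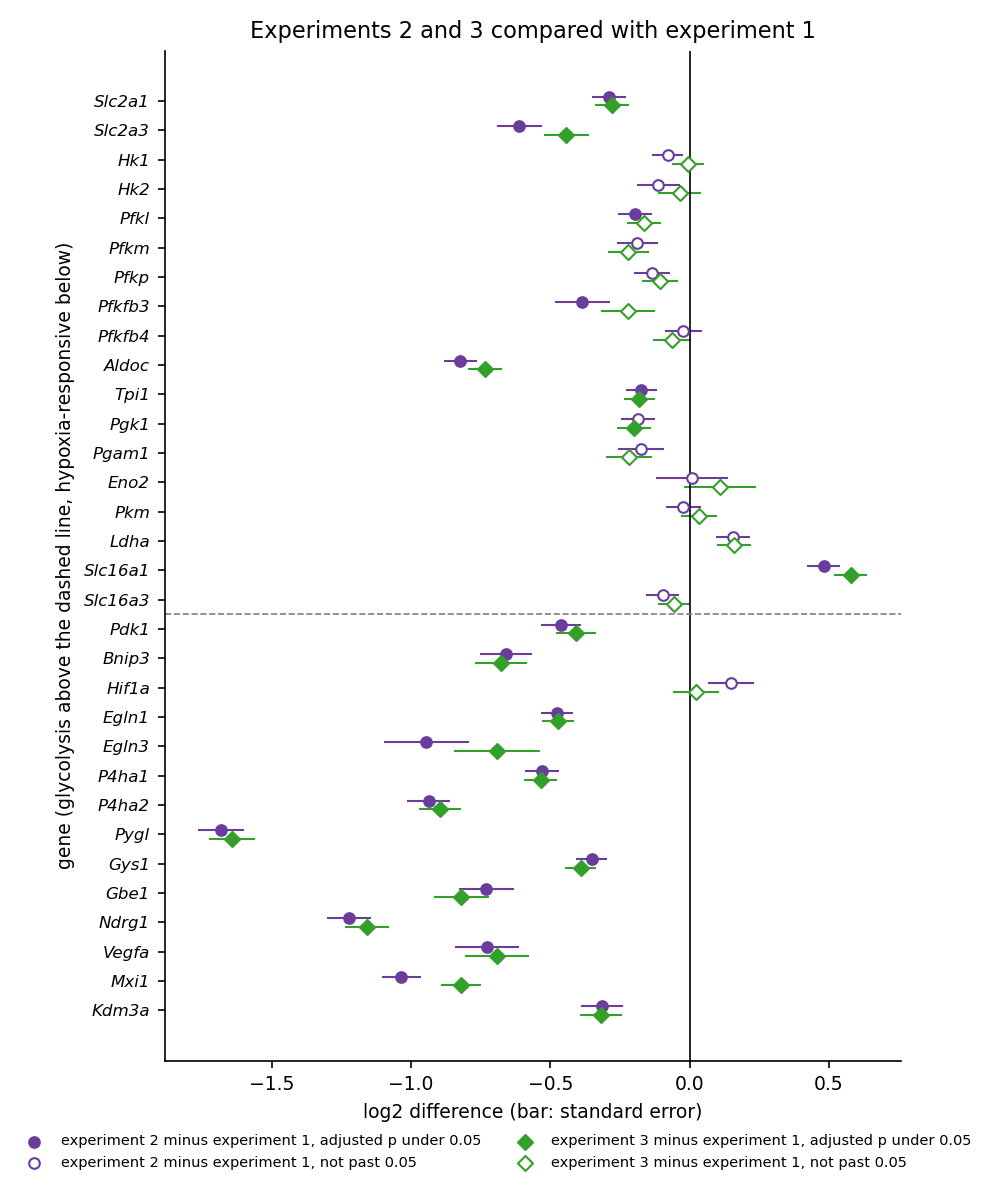
Log2 differences of experiments 2 and 3 against experiment 1 for each of the 32 members, with standard errors from limma as bars, glycolytic genes above the dashed line. Filled points have an adjusted p under 0.05. Hypoxia-responsive genes lie to the left of 0 except Hif1a. Of 18 glycolytic genes, 15 lie to the left of 0 in experiment 2 and 14 in experiment 3, with medians of -0.15 and -0.14. Aldoc and Slc2a3 are farthest to the left of the glycolytic genes, at -0.82 and -0.61 in experiment 2, and Slc16a1 is farthest to the right.

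Glycogen genes were led by Pygl, the liver-type glycogen phosphorylase, which releases glucose units from glycogen. Pygl read 8.84 in WT, 8.28 in Tyk2-/- and 8.60 in Tyk2K923E in experiment 1, then 7.09, 6.61 and 6.97 in experiment 2 and 7.10, 6.85 and 6.84 in experiment 3. The lowest array of experiment 1 was above the highest of the other 6, as it was in 14.5% of all genes tested. Pygl was lower by 1.68 in experiment 2 and by 1.64 in experiment 3 (SE 0.08, limma adjusted p = 1.15e-04 and 1.31e-04). Its level in experiment 1 was 3.17 times that of the mean of the others, which ranked 1 among the 12579 genes for higher signal in experiment 1. Gbe1, the glycogen branching enzyme, read 9.60, 9.30 and 9.48 in WT, Tyk2-/- and Tyk2K923E of experiment 1 and 8.55 to 8.82 on the other 6 arrays. It was lower by 0.73 and 0.82 (limma adjusted p = 0.00171 and 9.49e-04). Gys1, the glycogen synthase of muscle and most other tissues, works in the opposite direction to Pygl and was lower too, by 0.35 and 0.39 (limma adjusted p = 0.00301 and 0.00169).

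Of the oxygen sensors among the members, the prolyl hydroxylases Egln1 and Egln3 fell and Hif1a did not pass. A further prolyl hydroxylase of the family, Egln2, is no member, was chosen after its value was seen, and differed by -0.06 between experiment 1 and the mean of the others, opposite in sign to Egln1 and Egln3. Egln3 read 10.96, 10.83 and 11.03 in WT, Tyk2-/- and Tyk2K923E of experiment 1. It read 9.51, 10.08 and 10.39 in experiment 2 and 10.24, 10.10 and 10.40 in experiment 3. No array of experiments 2 and 3 reached those of experiment 1, and the WT array of experiment 2 was the lowest of all. Egln3 was lower by 0.94 and 0.69 (SE 0.15, limma adjusted p = 0.00328 and 0.0106), and the second call was lost without the WT array of experiment 1 (a difference of -0.56, adjusted p = 0.0508), without the Tyk2-/- array of experiment 3 (adjusted p = 0.0551) or without the Tyk2K923E array of experiment 3 (adjusted p = 0.0547). Egln1, the main oxygen sensor among them, was lower by 0.48 and 0.47 (SE 0.06, limma adjusted p = 0.00114 and 9.6e-04). Hif1a itself, which is controlled mainly at the protein level, read 9.90 to 10.12 in experiment 1 and 9.90 to 10.20 on the other arrays. Its differences were 0.15 (95% confidence interval -0.04 to 0.34) and 0.02 (-0.17 to 0.21), and its second, dimmer probe set was 0.28 higher in experiment 1 where the brightest was 0.09 lower.

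Ndrg1, a cytoplasmic protein induced by hypoxia and other stress, read 11.37, 10.98 and 11.43 in WT, Tyk2-/- and Tyk2K923E of experiment 1, and 9.97 to 10.17 on the other 6 arrays. It was lower by 1.22 and 1.16 (SE 0.08, limma adjusted p = 2.35e-04 and 2.44e-04), and its second probe set was 1.52 higher in experiment 1 than in the mean of the others. Mxi1, a partner of Max that opposes Myc, read 9.67, 9.42 and 9.64 in experiment 1 and 8.39 to 8.80 elsewhere. It was lower by 1.04 and 0.82 (SE 0.07, limma adjusted p = 2.73e-04 and 3.5e-04), and its second probe set was 1.01 higher in experiment 1 than in the mean of the others. For both genes the groups of arrays were far apart relative to their own spread. Vegfa, the growth factor for blood vessels, read 11.15, 10.81 and 11.28 in experiment 1 and 10.08 to 10.64 elsewhere, lower by 0.73 and 0.69 (SE 0.11, limma adjusted p = 0.00292 and 0.00313). Kdm3a, a histone demethylase, had the smallest difference of the 13 (0.31 and 0.32, limma adjusted p = 0.0169 and 0.0142). It lost a call without the WT array of experiment 1 (adjusted p = 0.0625 and 0.0521), without the WT or Tyk2K923E array of experiment 2 (adjusted p = 0.0868 and 0.0541 for experiment 2) and without the WT or Tyk2K923E array of experiment 3 (adjusted p = 0.0588 and 0.0563 for experiment 3).

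The collagen prolyl hydroxylases P4ha1 and P4ha2, which modify proline in collagen and need oxygen to do so, both fell. P4ha2 read 8.05, 7.84 and 8.09 in WT, Tyk2-/- and Tyk2K923E of experiment 1 and 6.97 to 7.16 elsewhere. It was lower by 0.94 and 0.90 (SE 0.08, limma adjusted p = 4.16e-04 and 3.42e-04), and P4ha1 by 0.53 and 0.54 (adjusted p = 9.74e-04 and 7.34e-04). Bnip3, a receptor for the removal of mitochondria, read 10.55, 10.15 and 10.32 in experiment 1 and 9.48 to 9.85 elsewhere. It was lower by 0.66 and 0.68 (limma adjusted p = 0.00195 and 0.00147). Pdk1, which inhibits pyruvate dehydrogenase and so keeps pyruvate from the mitochondria, was lower by 0.46 and 0.41 (limma adjusted p = 0.00286 and 0.00413).

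**Figure D3:**
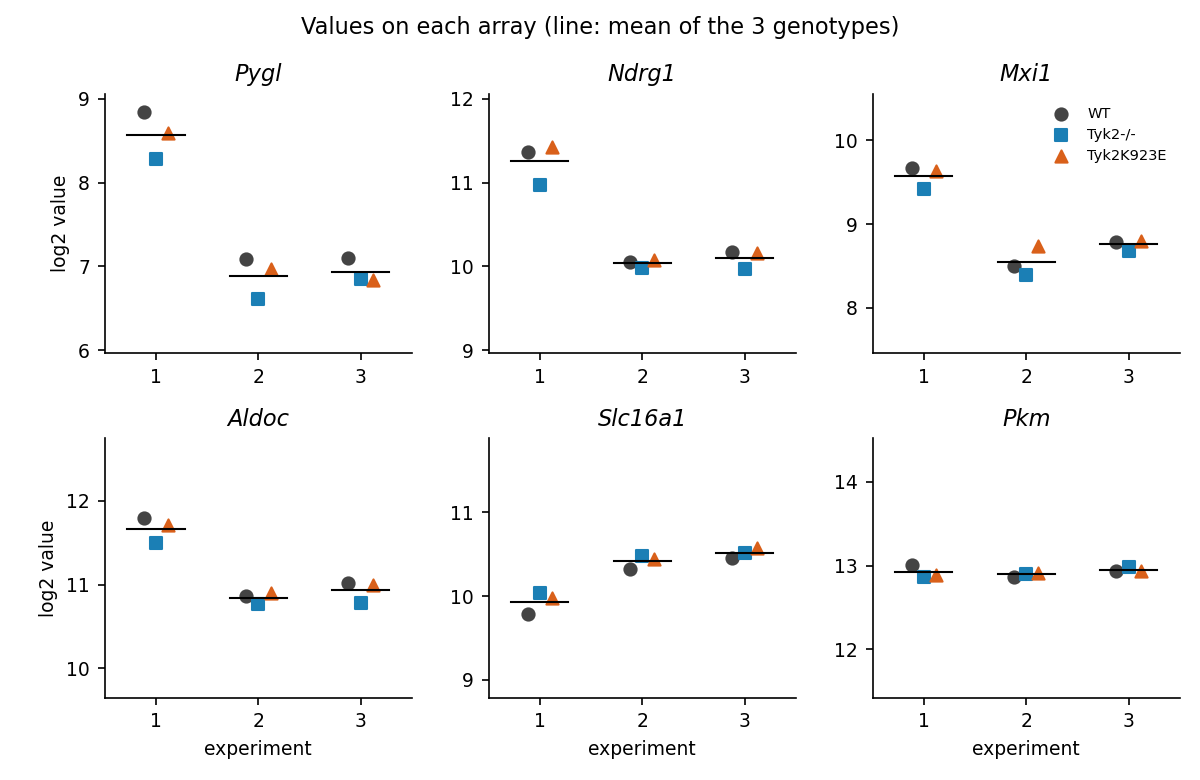
Log2 signal of 6 members on each of the 9 arrays, by experiment, with a marker for each genotype and a line at the mean of the 3 genotypes. For Pygl, Ndrg1, Mxi1 and Aldoc every array of experiment 1 lies above every other array, for Slc16a1 every array of experiment 1 lies below, and for Pkm the arrays overlap.

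Among glucose transporters, Slc2a3 (GLUT3) read 10.47, 10.56 and 10.66 in WT, Tyk2-/- and Tyk2K923E of experiment 1 and 9.93 to 10.22 elsewhere. It was lower by 0.61 and 0.44 (SE 0.08, limma adjusted p = 0.00157 and 0.00485). Slc2a1 (GLUT1) read 12.08, 11.91 and 12.19 in experiment 1 and 11.67 to 11.86 elsewhere, and was lower by 0.29 and 0.28 (SE 0.06, limma adjusted p = 0.00965 and 0.0098). The Slc2a1 call of experiment 2 was lost without the WT array (adjusted p = 0.0558) or the Tyk2K923E array (adjusted p = 0.0514) of that experiment, and as the mean of its 2 probe sets (-0.19, adjusted p = 0.0581).

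Of the enzymes, Aldoc, the aldolase isoform best known from brain, moved most. It read 11.79, 11.50 and 11.71 in WT, Tyk2-/- and Tyk2K923E of experiment 1 and 10.77 to 11.02 elsewhere, and was lower by 0.82 and 0.73 (SE 0.06, limma adjusted p = 3.3e-04 and 3.22e-04). Aldoa, the aldolase of most cells, was not analysed here. Triosephosphate isomerase (Tpi1) was lower by 0.17 and 0.18 (limma adjusted p = 0.0493 and 0.0398), and phosphoglycerate kinase (Pgk1) by 0.19 and 0.20 (adjusted p = 0.0546 and 0.0396). Pfkl, a subunit of phosphofructokinase, was lower by 0.20 and 0.17 (adjusted p = 0.0436 and 0.0728). Pfkfb3, which makes the activator of phosphofructokinase, was lower by 0.39 and 0.22 (adjusted p = 0.0213 and 0.125), and its first call was lost without the WT array of experiment 1 (adjusted p = 0.0635) or of experiment 2 (adjusted p = 0.0886). The calls of Tpi1, Pgk1 and Pfkl were near the threshold and were each lost in 10 or 11 of 19 alternatives, with adjusted p of 0.0522 to 0.187, among them leaving out the WT array of experiment 1 or of experiment 2 and most other single arrays.

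Several central enzymes showed little difference between experiments. Hexokinase 2 (Hk2) read 9.27 to 9.52 in experiment 1 and 9.10 to 9.39 elsewhere, and the pyruvate kinase gene Pkm read 12.86 to 13.01 and 12.87 to 12.98. The differences of Pkm were -0.02 (95% confidence interval -0.17 to 0.12) and 0.03 (-0.11 to 0.18), and those of Hk2 were -0.11 (-0.29 to 0.06) and -0.04 (-0.21 to 0.14). Intervals of this width leave room for shifts of up to 0.3 on the log2 scale. Hk1, Pfkm, Pfkp, Pfkfb4, Pgam1, Eno2, Ldha and Slc16a3 passed in neither comparison. Of these, Pfkm (-0.19 and -0.22) and Pgam1 (-0.18 and -0.22) differed about as much as Tpi1 and Pgk1, and Pfkm passed in some alternatives. Eno2 had a mean level of 5.48, where the array medians were 5.42 to 5.48. Its signal was thus near the filter level, which it reached on 6 of 9 arrays. The second, dimmer probe set of Pgam1 was 0.15 lower in experiment 1 than in the mean of the others, where the brightest was 0.20 higher.

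Lactate genes went the other way or did not pass. Slc16a1 (MCT1), a lactate and pyruvate transporter, read 9.79, 10.03 and 9.98 in WT, Tyk2-/- and Tyk2K923E of experiment 1, 10.32, 10.47 and 10.44 in experiment 2, and 10.45, 10.51 and 10.57 in experiment 3. All arrays of experiment 1 were below the other 6, as they were for 18.7% of all genes tested. Slc16a1 was higher by 0.48 and 0.58 in experiments 2 and 3 (SE 0.06, limma adjusted p = 0.00124 and 5.36e-04). Ldha, which makes lactate, read 8.29 to 8.36 in experiment 1 and 8.43 to 8.54 elsewhere. Its arrays did not overlap, but its differences of 0.16 and 0.16 did not pass (limma adjusted p = 0.0947 and 0.0817). Slc16a3 (MCT4), the exporter of highly glycolytic cells, differed by -0.10 and -0.06.

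The difference between experiment 1 and the mean of experiments 2 and 3 was seen in each genotype. Its class median for hypoxia-responsive genes was 0.93 in WT, 0.55 in Tyk2-/- and 0.61 in Tyk2K923E, and for glycolytic genes it was 0.17, 0.15 and 0.08. The largest differences were those of Pygl (1.74, 1.56 and 1.69) and Ndrg1 (1.26, 1.00 and 1.31). Egln3, Vegfa, Gbe1 and Bnip3 had more in WT than in the other genotypes, for instance 1.08, 0.73 and 0.64 for Egln3 and 0.91, 0.62 and 0.47 for Bnip3. With 1 array per genotype and experiment, whether the genotypes differ in this respect cannot be tested. No test is given for experiment 1 against the pooled others, because that split was chosen with these results known.

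Other genes were counted from lists of related pathways. Of 38 tested among 44 other hypoxia-responsive genes, 20 were lower and 3 higher in experiment 2 than in experiment 1 (limma adjusted p under 0.05), and 24 were lower and 3 higher in experiment 3. Selenbp1, a selenium-binding protein, was lower by 1.28 and 1.33, the cyclin Ccng2 by 0.83 and 0.80, and Zfp395 by 0.73 and 0.71. The transferrin receptor Tfrc, which takes up iron, was among the 3 that went the other way (0.68 higher in experiment 3). Of 21 tested among 31 other glycolysis genes, 3 were lower and 2 higher in experiment 2, and 4 were lower and 3 higher in experiment 3. These counts were near the shares of all genes, 11.6% lower and 16.9% higher in experiment 2 and 14.7% and 17.2% in experiment 3. Adpgk, a glucokinase that uses ADP, was higher by 0.62 in both experiments. Bsg, the chaperone of the Slc16a transporters, was lower by 0.24 and 0.26. The other hypoxia-responsive genes had a median difference of 0.28 between experiment 1 and the mean of the others, and the other glycolysis genes one of 0.04.

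Neighbouring pathways held calls in both directions. The shares of all genes were 11.6% lower and 16.9% higher in experiment 2, and 14.7% and 17.2% in experiment 3. Of 8 pentose phosphate genes, 3 were higher in each of experiments 2 and 3 and 0 lower, led by Prps1, which makes the ribose precursor of nucleotides (0.61 and 0.67). Of 23 citrate cycle genes, 7 were higher in each, 1 was lower in experiment 2 and 2 were lower in experiment 3, with Ogdh at 0.58 and 0.61 and Idh3a at 0.61 and 0.64. Among 18 regulators of metabolism, Txnip, an inhibitor of glucose uptake, was lower by 1.04 and 0.90, and its relative Arrdc4 by 0.80 and 1.07, while Myc was higher by 0.42 and 0.43 and Mtor by 0.28 and 0.27. These were the 4 of 18 that passed in each comparison.

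Proliferation and stress genes moved with the same experiments. Among all genes, 11.6% were lower and 16.9% higher in experiment 2, and 14.7% and 17.2% in experiment 3. Of 28 cell cycle genes, 27 were higher in experiment 2 and 26 in experiment 3 than in experiment 1, and 0 were lower. Their mean level was 9.002 to 9.61 on the arrays of experiment 1, 9.96 to 10.1 in experiment 2 and 10.0 to 10.2 in experiment 3. Of 21 genes of the integrated stress response, 7 were lower in experiment 2 and 8 in experiment 3 and 1 was higher in each, with Ddit3 lower by 1.30 and 1.33. Trib3 stands in this list and among the other hypoxia-responsive genes. NK cell markers had similar mean levels in all 3 experiments (11.2 to 11.3, 11.2 to 11.4 and 11.2 to 11.3), with 3 of 14 lower in both experiments 2 and 3 (Klrd1, Klrb1c and Tyrobp), 1 higher in experiment 2 and 2 higher in experiment 3. Ncr1 was higher by 0.47 and 0.45 (limma adjusted p = 0.0169 and 0.0174). Of 11 T cell markers, 1 was lower in experiment 2 (Cd28, by 0.25) and 3 were higher in experiment 3 (Lat by 0.39, Bcl11b by 0.22 and Cd3e by 0.61). Of 5 monocyte and macrophage markers, Cd68 was lower in both (by 0.47 and 0.53), and in experiment 3 Cd14 was lower by 0.35 and Ly6c2 higher by 0.81. Of the remaining marker lists, 1 of 2 erythroid and platelet markers was lower in experiment 2 and 1 of 6 stromal markers was higher in experiment 3. The part of these differences in the values of the members was not tested, and in arrays of whole cultures, a change in RNA per cell cannot be told apart from a change in which cells are present.

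**Figure D4:**
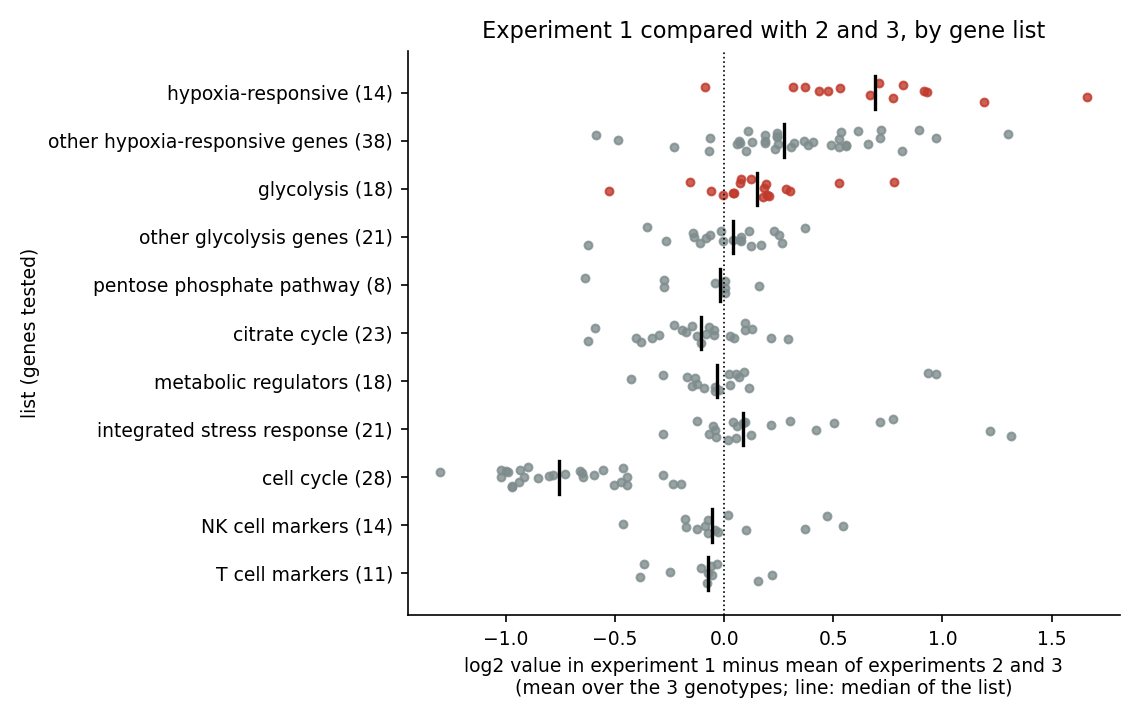
Log2 difference between experiment 1 and the mean of experiments 2 and 3 for the genes of each list, 1 point per gene, with the median of each list as a line and members in red. The median is 0.69 for the hypoxia-responsive members, 0.15 for the glycolytic members, 0.28 for other hypoxia-responsive genes, 0.04 for other glycolysis genes and -0.76 for cell cycle genes.

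Between genotypes, no member passed. With the experiments paired, 0 of 32 members differed in Tyk2-/- against WT, in Tyk2K923E against WT or in Tyk2K923E against Tyk2-/- (limma adjusted p under 0.05), where 0.0874%, 0.0874% and 0.0238% of all genes passed. At an unadjusted p under 0.05 the counts were 5, 4 and 10 of 32 (limma), and the shares of all genes were 9.08%, 10.0% and 9.68%. The smallest adjusted p of a member was 0.222 for Tyk2-/- against WT, 0.407 for Tyk2K923E against WT and 0.452 for Tyk2K923E against Tyk2-/-. The 95% confidence intervals of the 18 glycolytic genes lay within -0.40 and 0.33 for Tyk2-/- against WT and within -0.24 and 0.36 for Tyk2K923E against WT, so differences of that size were not excluded by these 9 arrays. The 3 genotype comparisons share arrays with one another, and their values are given side by side.

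In Tyk2-/- against WT, 12 of 14 hypoxia-responsive genes had lower values and their median difference was -0.09, where 51.9% of all genes had higher values, while the glycolytic genes had 9 higher and 9 lower values and a median of -0.01. The largest member difference was that of Pygl, whose values in Tyk2-/- were below those in WT in every experiment, by 0.56, 0.48 and 0.25 (mean -0.43, SE 0.08, limma unadjusted p = 7.77e-04, adjusted p = 0.222). Ndrg1 differed by -0.22, Aldoc by -0.21 and Egln1 by -0.16, each with the same sign in all 3 experiments and none past the threshold. Altogether 7 hypoxia-responsive genes had lower values in all 3 experiments, as had 13.6% of all genes. Without experiment 1 the values of 9 of the 14 were lower and the median was -0.05, and Pygl differed by -0.37. In the same contrast all 28 cell cycle genes had higher values (median 0.16), 22 of them in all 3 experiments, as had 16.5% of all genes. Of 14 NK cell markers, 9 had lower values (median -0.09), with Klrd1 at -0.35, Itga2 at -0.39 and Klrk1 at -0.32. Of 11 T cell markers, 9 had lower values (median -0.09). None of these passed in limma (5 NK cell markers, 0 cell cycle genes and 0 T cell markers had an unadjusted p under 0.05), and their part in the values of the members was not tested.

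In Tyk2K923E against WT, the median difference was 0.07 for hypoxia-responsive and 0.03 for glycolytic genes. Vegfa had values above WT in each experiment, by 0.12, 0.48 and 0.33 (mean 0.31, SE 0.11, limma adjusted p = 0.407). Egln3 differed by 0.07, 0.88 and 0.15 (mean 0.37, limma adjusted p = 0.472), and the middle value rests on the WT array of experiment 2, at 9.51 the lowest of the 9. Pygl differed by -0.24, -0.12 and -0.26. None of these passed. In this contrast 10 of 11 T cell markers (median -0.36) and 23 of 28 cell cycle genes (median -0.07) had lower values, where 50.9% of all genes had higher values. Of 14 NK cell markers 1 passed as lower, as did 0.0636% of all genes. The part of these lists in the values of the members was not tested.

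In Tyk2K923E against Tyk2-/-, 13 of 14 hypoxia-responsive genes had higher values, as had 48.9% of all genes, and the median difference was 0.17, against 0.00 for glycolytic genes, of which 8 had higher and 10 lower values, and 0.00 for all genes. At an unadjusted p under 0.05, 8 of the 14 were higher in limma, where 4.89% of all genes were, and none passed after adjustment over all genes. In all 3 experiments 9 of the 14 had higher values, as had 14.3% of all genes. Vegfa differed by 0.47, 0.14 and 0.44 (mean 0.35, 95% confidence interval 0.09 to 0.62, limma adjusted p = 0.452), Bnip3 by 0.17, 0.28 and 0.36 (mean 0.27), Ndrg1 by 0.45, 0.09 and 0.19 (mean 0.25), and Mxi1 by 0.21, 0.34 and 0.13 (mean 0.23). Of the glycolytic genes, Slc2a1 and Aldoc had unadjusted p-values under 0.05, with differences of 0.19 and 0.18 (limma adjusted p = 0.452 for both). The class median of the hypoxia-responsive genes was 0.19, 0.15 and 0.14 in experiments 1, 2 and 3, and without experiment 1 all 14 had higher values, as had 53.6% of all genes.

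The 28 cell cycle genes had a median difference of -0.23 between Tyk2K923E and Tyk2-/-, with 27 lower, and of -0.60, 0.05 and -0.12 in the 3 experiments. The 11 T cell markers had a median of -0.33 (8 lower), and mean levels of 8.55 to 8.79 in Tyk2K923E, 8.80 to 9.09 in Tyk2-/- and 8.82 to 9.21 in WT. None of the 28 or of the 11 passed in limma, with unadjusted p-values under 0.05 for 8 and 6, and their part in the values of the members was not tested. Of the 38 other hypoxia-responsive genes, 28 had higher values in Tyk2K923E than in Tyk2-/- (median 0.08), and of the 21 other glycolysis genes, 13 had (median 0.06), with 0 calls.

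**Figure D5:**
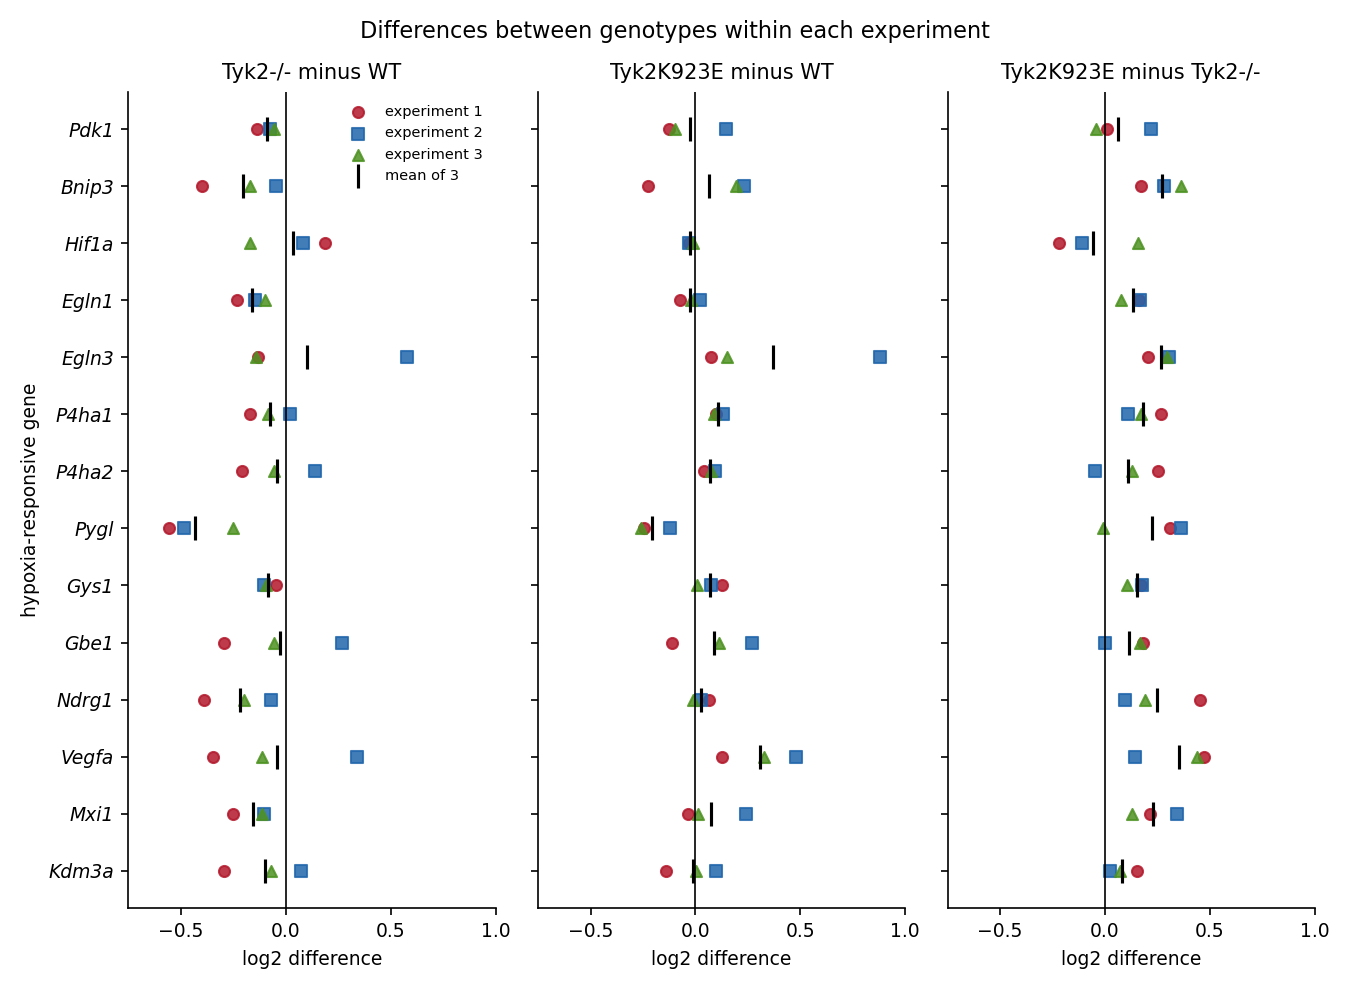
Log2 differences between genotypes within each experiment for the 14 hypoxia-responsive members, with 1 marker per experiment and a bar at the mean, in 3 panels for Tyk2-/- against WT, Tyk2K923E against WT and Tyk2K923E against Tyk2-/-. Most points lie within 0.5 of 0, and in the panel of Tyk2K923E against Tyk2-/- 13 of 14 means lie above 0.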

How the data were processed

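NK cell RNA was hybridised to Affymetrix arrays after labelling with the WT PLUS kit, per the labels' protocols. Per the submitters' processing notes the authors normalised the arrays with RMA in Partek 6.6, and the deposited values are on a log2 scale (1.10 to 14.1 over 41345 probe sets). The build used is not given in the sources used here.

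Of the probe sets, 23521 carry 1 gene symbol in the platform annotation. A probe set at or above its array's median on at least 3 of 9 arrays was kept (13245), and the brightest stood for a gene (12579 genes). Genes were fitted with limma 3.58.1 (R 4.3.3, lmFit and eBayes) on all 9 arrays with genotype and experiment as additive terms. P-values were adjusted by Benjamini-Hochberg over all genes within a comparison (threshold 0.05), and intervals are 95% confidence intervals. The labels state independent experiments with 1 pool per genotype, so genotypes were paired by experiment number. Deviations from the genotype means correlated at 0.383 to 0.787 in the 9 pairs of arrays that share an experiment and at -0.71 to 0.559 in the others. P-values and intervals rest on the spread between arrays that is left after genotype and experiment (4 residual degrees of freedom). In limma this spread is drawn towards a prior estimated from all genes (4.01 prior degrees of freedom).

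Simulated data of 12579 genes held 67 genes changed by 0.5, 67 by 1 and 66 by 2. There the comparison of Tyk2-/- with WT recovered 91% of changes of 0.5 and 100% of changes of 1, with 16 false calls. That of experiment 2 with 1 recovered 88.1% and 100%, with 14. In the real data 11 genes passed for Tyk2-/- against WT, and the adjusted p depends on how many genes change. These rates therefore hold for the simulated setting and do not give the share of real genotype differences found. The members and lists were chosen with earlier results of these data known. From each list, at most the 4 genes with the smallest p in a comparison are named, and the promoters are those of the 4 members with the largest difference between experiment 1 and the others among members with a RefSeq entry. Alternatives were no block or a random block, other filters, median centring, quantile normalisation, an intensity trend, array weights, the mean over probe sets, a threshold of 0.1, only the groups compared, and omission of single arrays or of whole experiments. The number of arrays limits the precision.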

Additional observations from a re-analysis of the deposited data

Results flagged for a closer look

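Slc2a1, the glucose transporter GLUT1, had values below WT in Tyk2-/- in all 3 experiments (-0.17, -0.02 and -0.15, mean -0.11) and above WT in Tyk2K923E in all 3 (0.11, 0.08 and 0.04, mean 0.08). The direct difference between the mutants was 0.19 and did not pass (limma adjusted p = 0.452). Gys1, glycogen synthase, showed the same signs, with -0.05, -0.10 and -0.10 (mean -0.08) in Tyk2-/- and 0.13, 0.07 and 0.01 (mean 0.07) in Tyk2K923E. Its difference between the mutants was 0.15 (limma adjusted p = 0.471). In both genes the 2 comparisons share the WT arrays, so the signs are not independent of each other.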

How the results depend on the processing

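Over 23 alternatives for genotypes and 19 for experiments, 3939 of 4020 member values kept their side of the threshold, 59 lost a call and 22 gained one. All lost and gained calls were in the 2 comparisons with experiment 1. There 565 values of experiment 2 kept their side, 32 lost a call and 9 gained one, and for experiment 3 these were 566, 27 and 13. The total includes the comparisons in which no member passed. A reversal was counted only where a value with a call changed sign, and there were 0. Changes of sign without a call were not counted, and they occurred between genotypes. For instance, Vegfa in Tyk2-/- against WT went from -0.04 to 0.11 without experiment 1. No member passed between genotypes under any of the 23. The lost calls were of 7 genes (Egln3, Kdm3a, Pfkfb3, Pfkl, Pgk1, Slc2a1 and Tpi1) and the gained ones of 5 (Pgk1, Pfkl, Pfkm, Ldha and Pgam1). Members higher than in experiment 1 numbered 2 at a threshold of 0.1 in both comparisons, and 2 in experiment 3 with the filter at the 70th percentile. The glycolytic median of experiment 3 against 1 was -0.17 with that filter, -0.15 with median centring and -0.085 with the mean over probe sets, and the cause was not tested.

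With 1 array left out, members lower than in experiment 1 numbered 14 to 18 in both comparisons and members higher 1. The hypoxia-responsive medians then ranged from -0.74 to -0.56 for experiment 3 against 1, from -0.171 to -0.051 for Tyk2-/- against WT, from -0.014 to 0.093 for Tyk2K923E against WT (-0.014 without the WT array of experiment 2) and from 0.14 to 0.20 for Tyk2K923E against Tyk2-/-. The glycolytic medians ranged from -0.17 to -0.10 for experiment 3 against 1, from -0.031 to 0.027 for Tyk2-/- against WT, from -0.019 to 0.055 for Tyk2K923E against WT and from -0.022 to 0.049 for Tyk2K923E against Tyk2-/-; these ranges include leaving out a whole experiment for the genotypes.

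Without the replicate block, that is without pairing, 0 members passed between genotypes, and 20 and 18 members were lower in experiments 2 and 3. Among all genes, calls without the block numbered 4 against 11 for Tyk2-/- against WT, 1 against 11 for Tyk2K923E against WT and 3 against 3 between the mutants. Other alternatives gave 3 to 26 calls for Tyk2-/- against WT, 1 to 66 for Tyk2K923E against WT, and 2 to 6 between the mutants. Without the WT or the Tyk2K923E array of experiment 2, calls of experiment 2 against 1 fell to 2230 and 2199 from 3585, and without the Tyk2K923E array of experiment 3, those of experiment 3 against 1 fell to 2604 from 4021.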
